A study of Homo sapiens with 4 samples.

Results

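The mitochondrial ribosome is a separate ribosome inside mitochondria that translates the small set of mRNAs encoded by mitochondrial DNA, all of which specify subunits of the respiratory chain and ATP synthase. Its RNAs come from mitochondrial DNA, whereas its proteins are encoded in the nucleus, made in the cytosol and imported. The small subunit holds the mRNA and the decoding site, and the large subunit holds the peptidyl transferase centre and the exit tunnel. Some of its proteins have counterparts in all ribosomes, some only in bacterial ribosomes, and others are found only in mitochondria.

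The genes described here are the protein-coding genes of GENCODE 29 whose symbol begins with MRPL or MRPS and a number. There were 78 of them among the 58735 genes counted, and all 78 were matched by Ensembl gene ID. The same symbol pattern also names 75 pseudogenes and 2 other noncoding genes, which were left out. By the place of the protein in the ribosome, 51 belong to the large subunit and 26 to the small subunit. MRPS30 and MRPS18A were counted with the large subunit, where their proteins sit in spite of the symbol. MRPS36, whose product is now assigned to the 2-oxoglutarate dehydrogenase complex, was placed in neither. The genes are spread over 21 chromosomes.

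RNA was sequenced from A549 cells, a human lung adenocarcinoma line. The shRALY group (2 libraries) had been infected with lentivirus carrying a hairpin against RALY, a member of the hnRNP family that binds RNA, and its genotype is labelled as RALY knockdown. The shControl group (2 libraries) had been infected with lentivirus carrying a control hairpin and is labelled wild type (WT). Both groups therefore carried a lentiviral hairpin, both grew in RPMI 1640 medium with 10% FBS, and both are labelled day 2. The labels do not say whether the libraries of a group came from separate cultures; p-values thus measure only how far these libraries spread, which may be technical.

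Total counts were 16823605 to 18632787 in the shRALY libraries and 16745818 to 17587717 in the shControl libraries. RALY itself, the targeted gene, stood at 40.9 and 41.5 CPM (counts scaled to a common library size) in shRALY, against 123 and 133 CPM in shControl (log2 -1.64 with SE 0.11; adjusted p = 5.85e-11 by edgeR). Summed over 5 epithelial markers (EPCAM, CDH1, KRT8, KRT18 and KRT19) the level was 5708 and 5886 CPM in shRALY and 5294 and 5787 CPM in shControl. The label calls the cells alveolar basal epithelial; the 3 basal markers TP63, KRT5 and KRT14 summed to 1.41 and 1.96 CPM in shRALY and 3.29 and 3.41 CPM in shControl, with KRT5 or KRT14 at 0 in every library. The 5 alveolar type II markers summed to 116 and 139 CPM in shRALY and 72.5 and 104 CPM in shControl; SFTPA1 and SFTPC had no counts in either shRALY library, and SFTPA1 had none in shControl replicate 1. Single markers did move: LAMP3 had 27.2 and 36.3 CPM in shRALY, against 0.0558 and 0.235 CPM in shControl (edgeR adjusted p = 2.25e-14), and KRT19 had 324 and 299 CPM in shRALY, against 90.2 and 101 CPM in shControl (edgeR adjusted p = 1.35e-11). By edgeR, 2 of 5 epithelial and 1 of 2 tested alveolar type II markers were higher. The 1 tested basal marker, at a mean of 2.40 CPM, was lower by edgeR (log2 -1.17) but was not called by DESeq2. Of all tested genes, 41.0% were called by edgeR. The part of these markers in the results was not tested. Markers of immune cells (5 genes) summed to at most 0.435 CPM in any library, and markers of fibroblasts and endothelium (5 genes) to 13.4 and 15.9 CPM in shRALY and 18.4 and 18.8 CPM in shControl.

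Most mitochondrial ribosomal protein genes differed little between the groups. Of the 78, 77 had enough counts to be tested, and 15 passed at an edgeR adjusted p under 0.05, with 6 higher and 9 lower in shRALY. That is 19.5% of the members tested, against 41.0% of all 15912 genes tested and 45.4% of the 13161 protein-coding genes tested. The gap depended on the libraries: without shControl replicate 1 the shares were 35.1% of members and 42.2% of all genes, and without shControl replicate 2 they were 31.2% and 40.5%. Without shRALY replicate 1 they were 11.7% and 24.8%, and without shRALY replicate 2 they were 10.4% and 23.8%. In each of these fits 1 group has a single library, which is assumed to vary like the pair of the other group. By direction, 20.6% of all tested genes were higher and 20.4% lower. The median log2 fold change of the members was -0.09, against -0.01 for all tested genes. Regardless of sign, the median change was 0.19 log2 units for the members and 0.38 for all tested genes. Within 1.2-fold of the control level lay 55 of the 77 members (71.4%) and 36.2% of all tested genes. For tested protein-coding genes these values were 0.37 and 37.4%. The comparison was not matched for level: the median mean was 38.0 CPM for members, 19.2 for all tested genes and 27.9 for protein-coding genes. A change of 2-fold or more that also passed the test was found for 2 members (2.60%), MRPS27 and MRPS22, against 13.6% of all tested genes. With groups of 2 libraries, 47 of the 77 members (61.0%) had shRALY values that did not overlap the shControl values, against 69.7% of all tested genes. DESeq2 called 12 of the 77, against 32.1% of all genes it tested. In RNA from whole cultures, fewer cells of a type and less RNA per cell cannot be told apart, and all changes are relative to the other transcripts of a library.

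**Figure D1:**
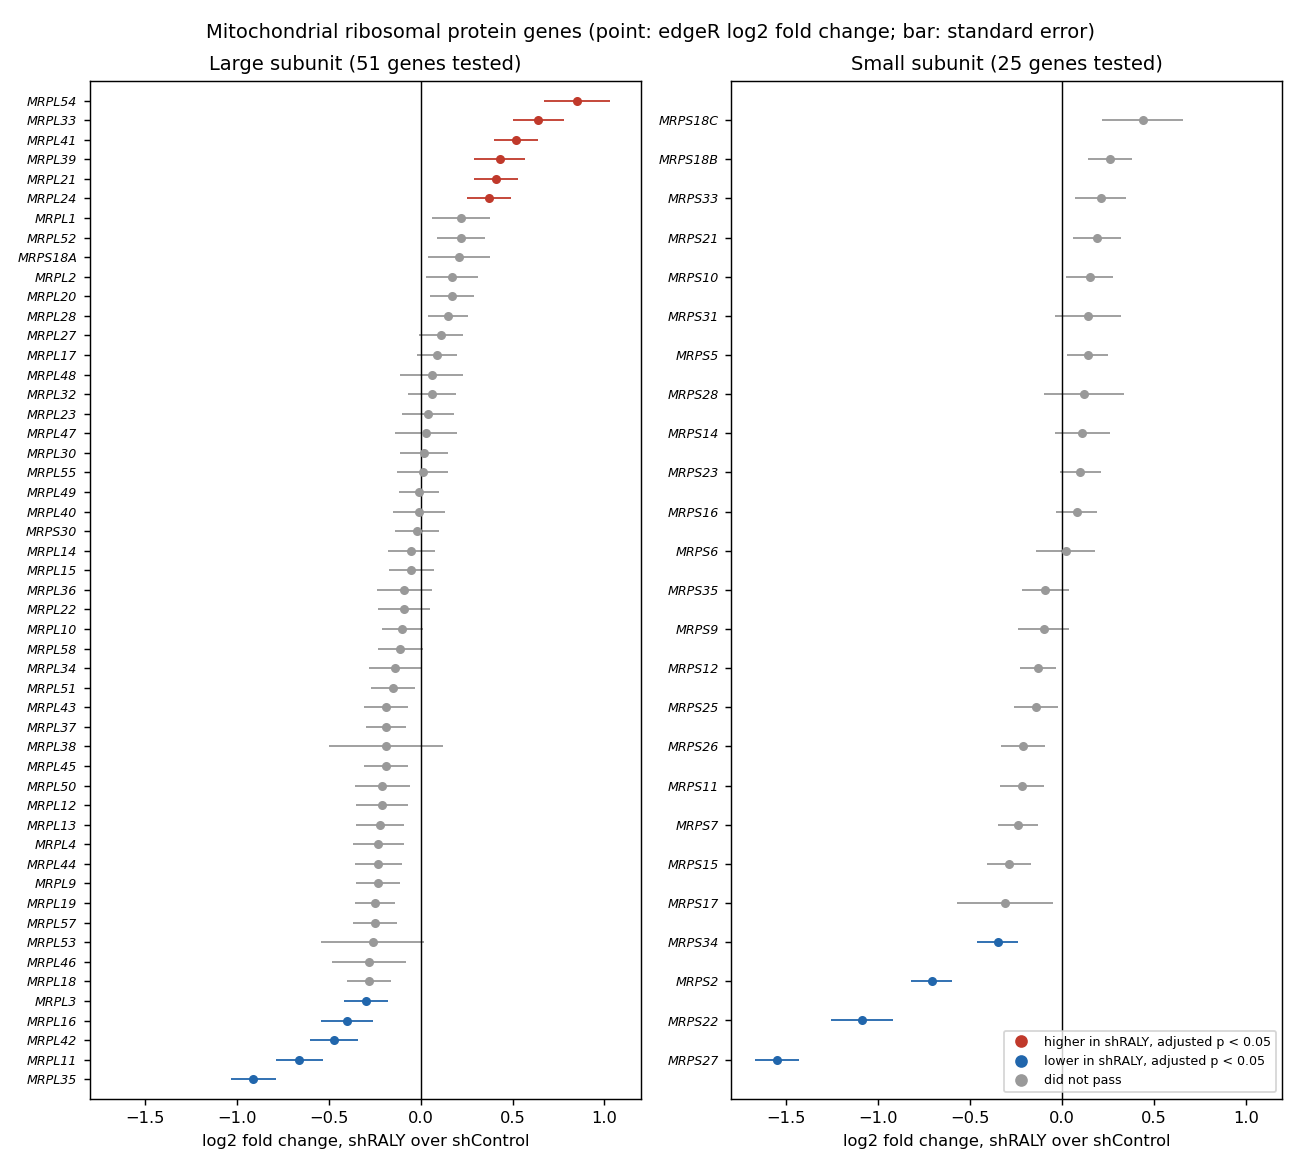
Log2 fold change (shRALY over shControl) of each tested mitochondrial ribosomal protein gene on the x axis, with large subunit genes in the left panel and small subunit genes in the right. Points are edgeR estimates, bars are standard errors, and colour marks the 6 genes that were higher and the 9 that were lower; the remaining points cluster around 0.

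**Figure D2:**
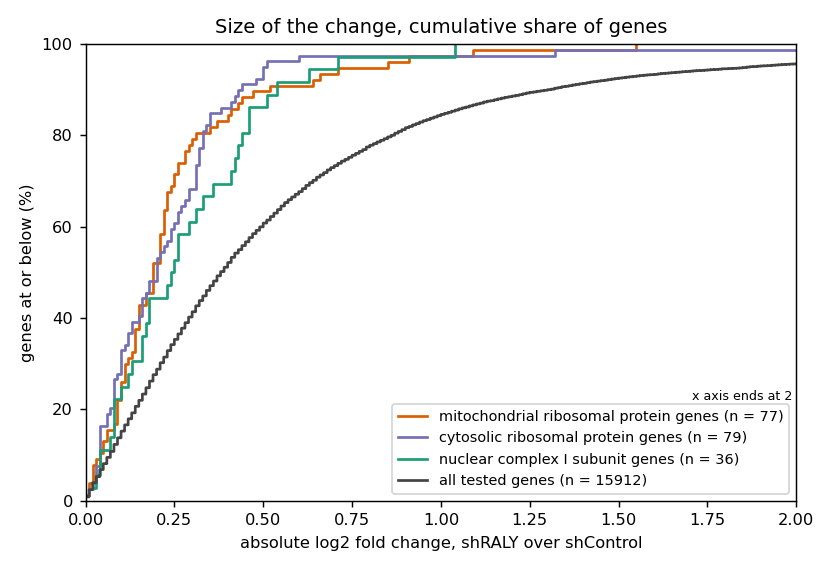
Cumulative share of genes (y axis, percent) at or below a given absolute log2 fold change (x axis, cut at 2) for the 77 tested members, 79 cytosolic ribosomal protein genes, 36 nuclear genes of respiratory complex I and all 15912 tested genes. The curve of the members lies to the left of the curve of all tested genes, with medians of 0.19 and 0.38. The gene sets were not matched for level.

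The largest fall among these genes was that of MRPS27, whose protein mS27 is a pentatricopeptide repeat protein found only in mitochondrial ribosomes. MRPS27 (ENSG00000113048, chromosome 5, 72219409 to 72320646, minus strand, GRCh38) had 47.9 and 39.7 CPM in shRALY, against 133 and 124 CPM in shControl. The groups were far apart and each was tight, and the level was 2.94-fold lower (log2 -1.55, SE 0.12; edgeR adjusted p = 3.77e-10). MRPS22, another small subunit protein without a bacterial counterpart and a known mitochondrial disease gene, lies on chromosome 3 at 139005806 to 139357223 (plus strand). MRPS22 stood at 12.7 and 10.5 CPM in shRALY and at 28.5 and 21.1 CPM in shControl, 2.13-fold lower (log2 -1.09, SE 0.17; edgeR adjusted p = 2.10e-05). Here the control libraries differed more from each other, yet both shRALY values lay below them. MRPS2, the counterpart of bacterial S2 (chromosome 9, 135499984 to 135504673, plus strand), had 55.4 and 49.9 CPM in shRALY, against 83.2 and 89.5 CPM in shControl, 1.64-fold lower (log2 -0.71, SE 0.11; edgeR adjusted p = 2.61e-05). MRPS34, a mitochondria-specific protein of the small subunit (chromosome 16, 1771890 to 1773155, minus strand), had 104 and 106 CPM in shRALY, against 133 and 134 CPM in shControl. Its fall was small, at 1.27-fold (log2 -0.35, SE 0.11; edgeR adjusted p = 0.0115), and it lost the call when either shRALY library was left out, at log2 -0.33 (adjusted p = 0.224 by edgeR) with replicate 1 removed and log2 -0.35 (adjusted p = 0.199 by edgeR) with replicate 2 removed. The size of its change hardly moved in those fits, whose spread comes from the shControl pair alone.

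Upstream sequence of MRPS22 and MRPS34 is shown because both fell and both hold the ETS-type motif CCGGAAG, in capitals on either strand. Factors such as GABPA recognise this motif. In windows from 250 bases before to 50 after the start, MRPS27 and MRPS2, which also fell, held no copy. The motif was in 4 of 8 such windows of genes that fell, 2 of 5 of genes that rose and 23 of 55 of uncalled genes. The sequences are from RefSeq (GRCh38.p14), read along the gene's strand and restricted to bases before the RefSeq start that no GENCODE exon covers. For MRPS22 this is chr3:139343744-139343955 on the plus strand, 250 to 39 bases before the RefSeq start, which is one of several starts of the gene; the motif occurs there on both strands, separated by a single base.
MRPS22: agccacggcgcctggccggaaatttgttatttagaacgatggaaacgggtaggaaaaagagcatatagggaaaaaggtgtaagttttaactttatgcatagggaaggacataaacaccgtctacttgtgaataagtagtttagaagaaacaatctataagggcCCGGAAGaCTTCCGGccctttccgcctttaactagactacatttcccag
For MRPS34 it is chr16:1773156-1773206 on the minus strand, 72 to 22 bases before the start, with the motif at both ends; a further copy starts 19 bases before the start, beyond the stretch.
MRPS34: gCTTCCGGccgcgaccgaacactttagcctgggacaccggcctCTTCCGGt

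Among large subunit genes, 5 of 51 were lower, against 20.4% of all tested genes. MRPL35, the counterpart of bacterial L35 (chromosome 2, 86199355 to 86213794, plus strand), had 36.7 and 34.9 CPM in shRALY, against 71.5 and 63.3 CPM in shControl, 1.88-fold lower (log2 -0.91, SE 0.12; edgeR adjusted p = 1.78e-06). MRPL11, a protein of the stalk base where translation factors dock (chromosome 11, 66435075 to 66466738, minus strand), had 30.8 and 27.6 CPM in shRALY, against 44.9 and 47.3 CPM in shControl, 1.58-fold lower (log2 -0.66, SE 0.13; edgeR adjusted p = 2.08e-04). In both genes the gap between the groups was wider than the gap between libraries of a group. The remaining falls were smaller and rested on fewer settings. MRPL42, a mitochondria-specific protein, had 44.3 and 41.1 CPM in shRALY, against 67.5 and 51.2 CPM in shControl (log2 -0.47, SE 0.13; edgeR adjusted p = 0.00583), and without shRALY replicate 2 the call was lost (log2 -0.41, adjusted p = 0.135 by edgeR). MRPL16, whose bacterial counterpart lies near the tRNA binding sites, had 31.6 and 27 CPM in shRALY, against 42.9 and 34.4 CPM in shControl (log2 -0.40, SE 0.14; edgeR adjusted p = 0.0246). For MRPL16 the shControl libraries lay further apart than the nearest libraries of the 2 groups, and the call was lost without shControl replicate 1 (log2 -0.23, edgeR adjusted p = 0.147), shRALY replicate 1 (log2 -0.51, edgeR adjusted p = 0.0639) or shRALY replicate 2 (log2 -0.28, edgeR adjusted p = 0.357). DESeq2 did not call it either (adjusted p = 0.0836).

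MRPL3, whose protein reaches towards the peptidyl transferase centre, had 86.0 and 73.7 CPM in shRALY, against 105 and 91.0 CPM in shControl (log2 -0.30, SE 0.12; edgeR adjusted p = 0.0472). This was the weakest of the 15 calls: it was lost without shControl replicate 1 (log2 -0.19, edgeR adjusted p = 0.11), shRALY replicate 1 (log2 -0.41, edgeR adjusted p = 0.124) or shRALY replicate 2 (log2 -0.18, edgeR adjusted p = 0.561), by DESeq2 (adjusted p = 0.0953), with RLE size factors (edgeR adjusted p = 0.0567) and with no filter on low counts (edgeR adjusted p = 0.0502). Its upstream sequence is given for comparison with MRPS22 and MRPS34, as it holds the same motif once (chr3:131502984-131503221, minus strand, 250 to 13 bases before the start, RefSeq, GRCh38.p14).
MRPL3: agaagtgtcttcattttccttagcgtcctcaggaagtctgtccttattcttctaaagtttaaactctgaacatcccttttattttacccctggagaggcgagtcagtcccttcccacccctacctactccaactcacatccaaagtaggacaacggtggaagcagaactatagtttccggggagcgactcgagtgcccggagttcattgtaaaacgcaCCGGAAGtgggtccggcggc

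In the fit of all 4 libraries, the 6 genes with MRP symbols that rose encode large subunit proteins, as do 51 of the 77 members tested. Among all tested genes 20.6% were higher. MRPL54, a mitochondria-specific protein (chromosome 19, 3762664 to 3768575, plus strand), had 14.2 and 18.1 CPM in shRALY, against 8.32 and 9.57 CPM in shControl, 1.80-fold higher (log2 0.85, SE 0.18; edgeR adjusted p = 7.48e-04). MRPL33, the counterpart of bacterial L33 (chromosome 2, 27771717 to 27988087, plus strand), had 30.5 and 33.2 CPM in shRALY, against 20.7 and 20.2 CPM in shControl, 1.56-fold higher (log2 0.64, SE 0.14; edgeR adjusted p = 6.75e-04). MRPL33 shares 21.1% of its exonic bases with BABAM2 on the same strand, which leaves its counts uncertain. MRPL41, another mitochondria-specific protein (chromosome 9, 137551199 to 137552555, plus strand), had 67.5 and 68.8 CPM in shRALY, against 42.2 and 52.9 CPM in shControl, 1.43-fold higher (log2 0.52, SE 0.12; edgeR adjusted p = 0.00173). Both shRALY libraries lay above both shControl libraries for MRPL54, MRPL33 and MRPL41.

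The other 3 rises were between 1.29-fold and 1.35-fold. MRPL39, a mitochondria-specific protein, had 25.7 and 24.3 CPM in shRALY, against 19.4 and 17.7 CPM in shControl (log2 0.43, SE 0.14; edgeR adjusted p = 0.0206). MRPL21, the counterpart of bacterial L21, had 52.8 and 51.4 CPM in shRALY, against 39.5 and 38.9 CPM in shControl (log2 0.41, SE 0.12; edgeR adjusted p = 0.00764). MRPL24, which lies near the mouth of the exit tunnel, had 55.5 and 54.8 CPM in shRALY, against 43.4 and 42.2 CPM in shControl (log2 0.37, SE 0.12; edgeR adjusted p = 0.0143). Libraries of a group agreed closely in all 3 genes, but the calls were lost when a shRALY library was left out and the spread came from the shControl pair alone. The log2 fold changes were then 0.40 and 0.48 for MRPL39, 0.40 and 0.44 for MRPL21 and 0.36 and 0.39 for MRPL24, close to those of all 4 libraries. Without shRALY replicate 1 the edgeR adjusted p was 0.204 for MRPL39, 0.141 for MRPL21 and 0.183 for MRPL24, and without shRALY replicate 2 it was 0.105, 0.0955 and 0.151. MRPL39 also lost its call with DESeq2 (adjusted p = 0.0595).

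**Figure D3:**
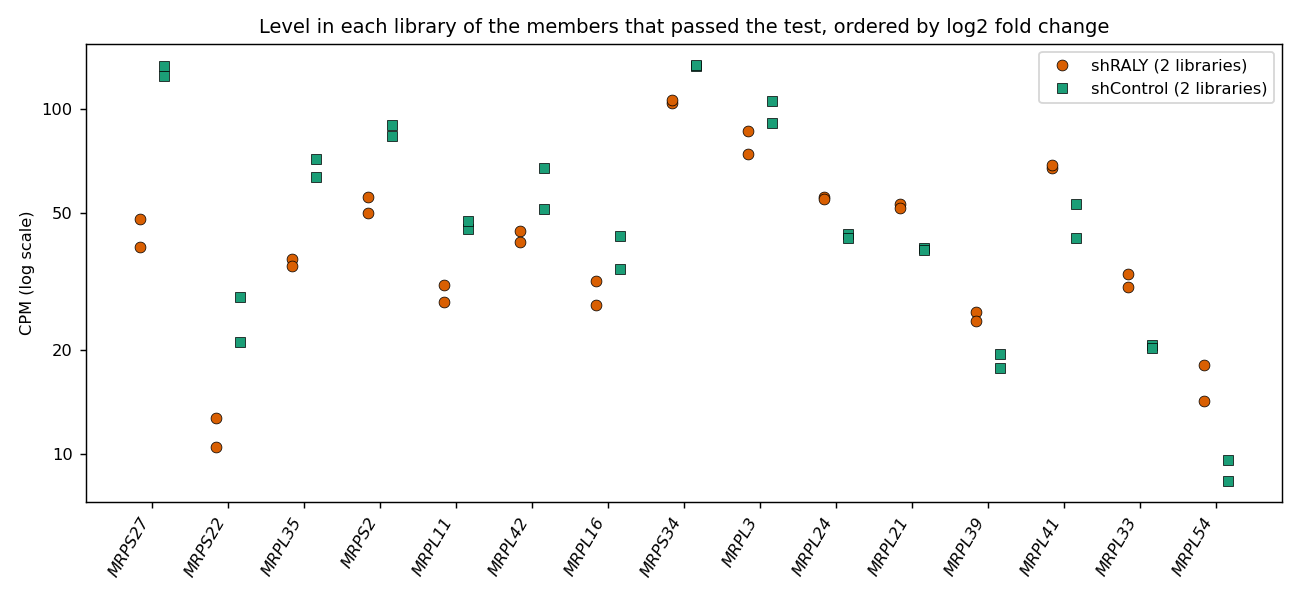
Level of the 15 members that passed the test in each library (CPM, log axis), ordered from the largest fall on the left to the largest rise on the right. Circles are the 2 shRALY libraries and squares the 2 shControl libraries; no gene has overlapping groups, and the gap is widest for MRPS27.

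Upstream sequences of MRPL54 and MRPL33 are given because these genes rose most. Both genes also hold the ETS motif, once in the 300-base window of each, starting 21 bases before the start in MRPL54 and 8 bases before it in MRPL33. The exon-free stretches end inside those copies, so no motif is in capitals here, and the sequences show no contrast with those of the genes that fell. That of MRPL54 is chr19:3762432-3762663, 250 to 19 bases before the start, and that of MRPL33 is chr2:27771469-27771716, 250 to 3 bases before the start, both on the plus strand (RefSeq, GRCh38.p14).
MRPL54: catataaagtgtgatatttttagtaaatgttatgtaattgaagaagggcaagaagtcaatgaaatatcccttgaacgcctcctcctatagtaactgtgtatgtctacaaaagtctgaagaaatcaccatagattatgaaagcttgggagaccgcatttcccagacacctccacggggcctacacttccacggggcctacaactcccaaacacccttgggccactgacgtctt
MRPL33: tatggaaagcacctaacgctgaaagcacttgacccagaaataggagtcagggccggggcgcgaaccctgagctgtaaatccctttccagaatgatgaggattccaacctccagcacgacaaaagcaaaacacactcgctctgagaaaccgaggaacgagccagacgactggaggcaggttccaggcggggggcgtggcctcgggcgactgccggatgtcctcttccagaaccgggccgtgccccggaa

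Of the 15 calls, 8 held in the same direction under all 13 alternative fits over all genes. They were the falls of MRPS27, MRPS22, MRPL35, MRPS2 and MRPL11 and the rises of MRPL54, MRPL33 and MRPL41. The other 7 (MRPL3, MRPL16, MRPL21, MRPL24, MRPL39, MRPL42 and MRPS34) failed at least 1 of them, and all 7 failed a test against a 1.2-fold change. Replicates were too few for the spread within a group to be known well, with 2 residual degrees of freedom in the fit.

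The subunits had the same median log2 fold change, -0.09 for the 51 large and -0.09 for the 25 tested small subunit genes. Of all tested genes 41.0% were called, 20.6% higher and 20.4% lower. Of the large subunit genes, 6 were higher and 5 lower (21.6% called). Of the small subunit genes, none was higher and 4 were lower (16% called). The 0 is an edgeR count; at an unadjusted p under 0.05, 1 small subunit gene was higher (MRPS18B), and DESeq2 gave 0. In the fit without shControl replicate 1, whose spread comes from the shRALY pair alone, MRPS10 (log2 0.34, edgeR adjusted p = 0.0177), MRPS18B (log2 0.31, edgeR adjusted p = 0.0143), MRPS21 (log2 0.34, edgeR adjusted p = 0.0166) and MRPS5 (log2 0.23, edgeR adjusted p = 0.0448) were called higher. DAP3, a small subunit gene without an MRP symbol, was higher in the fit of all 4 libraries (log2 0.40, edgeR adjusted p = 0.00467). No test of a difference between the subunits was made.

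Summed over its 26 genes with MRP symbols, the small subunit stood at 1355 and 1295 CPM in shRALY, against 1543 and 1477 CPM in shControl. The 51 large subunit genes summed to 2084 and 2004 CPM in shRALY, against 2177 and 2109 CPM in shControl. The ratio of small to large sums was thus 0.650 and 0.646 in shRALY, against 0.709 and 0.700 in shControl. The gap was narrower without MRPS27: the ratio then was 0.627 and 0.626 in shRALY, against 0.647 and 0.641 in shControl. All members together took 0.340% and 0.322% of counts in shRALY and 0.380% and 0.366% in shControl. The sums leave out the 5 genes of this ribosome with other symbols. Among those, DAP3 of the small subunit had 110 and 112 CPM in shRALY, against 83.6 and 83.9 CPM in shControl. GADD45GIP1 of the large subunit had 41.9 and 40.3 CPM in shRALY, against 55.3 and 56.1 CPM in shControl. The ratios thus hold for the genes with MRP symbols, not for the whole subunits. These sums are descriptions without a test.

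By origin of the protein, the share called was 19.2% for genes with counterparts in all ribosomes, 15.8% for those with counterparts only in bacteria and 22.6% for those found only in mitochondria, each below the 41.0% of all tested genes; differences between the classes were not tested. Of 26 tested genes with counterparts in all ribosomes, 1 was higher and 4 lower (median log2 fold change -0.10). Of 19 genes with counterparts only in bacteria, 2 were higher and 1 lower (median 0.08). Of 31 genes found only in mitochondria, 3 were higher and 4 lower (median -0.14), MRPS27 and MRPS22 among them. MRPL12, the stalk protein that recruits translation factors, had 30.6 and 32.8 CPM in shRALY and 32.1 and 41.3 CPM in shControl, with overlapping groups and no call (log2 -0.21, SE 0.14; edgeR adjusted p = 0.236). MRPL12 shares 68.2% of its exonic bases with an unnamed gene on its strand, so its counts are uncertain.

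The 3 human homologues of bacterial S18 take different places: MRPS18C replaces it, MRPS18B occupies another site of the small subunit, and MRPS18A sits in the large subunit. None of them passed the test. MRPS18C had 9.25 and 7.09 CPM in shRALY, against 5.47 and 6.58 CPM in shControl (log2 0.44, SE 0.22; edgeR adjusted p = 0.115). MRPS18B had 58.2 and 58.4 CPM in shRALY, against 50.1 and 47.0 CPM in shControl (log2 0.26, SE 0.12; edgeR adjusted p = 0.0728). MRPS18A had 15.1 and 15.5 CPM in shRALY, against 12.3 and 14.1 CPM in shControl (log2 0.21, SE 0.17; edgeR adjusted p = 0.344). The shRALY libraries of each homologue lay above its shControl libraries. With groups of this size, 69.7% of all tested genes had groups that did not overlap, in either direction. MRPS18C and MRPS18A overlap genes on the opposite strand over 40.2% and 47.0% of their exonic bases, and since the strand setting of the counting is not known, their counts are uncertain.

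Other genes of known role also stayed short of the threshold. MRPL58, a peptidyl-tRNA hydrolase that frees stalled ribosomes and is built into the large subunit, had 39.5 and 36.4 CPM in shRALY, against 40.3 and 41.4 CPM in shControl (log2 -0.11, SE 0.12; edgeR adjusted p = 0.527). MRPS30 of the large subunit had 60.7 and 65.4 CPM in shRALY, against 67.6 and 60.7 CPM in shControl (log2 -0.02, SE 0.12; edgeR adjusted p = 0.89). Its groups overlapped fully. MRPS36 had 12.9 and 16.1 CPM in shRALY, against 13.3 and 12.8 CPM in shControl (log2 0.15, SE 0.17; edgeR adjusted p = 0.54). MRPS6, the counterpart of bacterial S6, had 26.1 and 19.4 CPM in shRALY, against 23.8 and 21.0 CPM in shControl (log2 0.02, SE 0.16; edgeR adjusted p = 0.921). MRPS28 had 8.27 and 6.11 CPM in shRALY, against 6.31 and 6.93 CPM in shControl (log2 0.12, SE 0.22; edgeR adjusted p = 0.697), and shares 47.2% of its 50-base words with another gene. In MRPS36, MRPS6 and MRPS28 the libraries of the groups were interleaved.

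Per kilobase of the median coding transcript, MRPL49, MRPS12 and MRPL51 ranked highest of the 78 by the mean over all 4 libraries. MRPL49 averaged 162 CPM per kilobase in shRALY and 163 in shControl, MRPS12, which belongs to the decoding centre, 135 and 148, and MRPL51 122 and 136. MRPS34 ranked 4 with 102 in shRALY and 129 in shControl, MRPL19 ranked 5 with 103 and 122, and MRPS23 ranked 6 with 116 and 108. In shRALY alone MRPS23 and MRPL28 (104) stood above MRPL19 and MRPS34. The order also depends on the length used: per kilobase of all annotated exonic bases MRPS34 ranked 1, MRPS12 ranked 2, and MRPL49 ranked 21. Of these 6 genes, MRPS34 was the only one called. In log2 fold change of the level, MRPL49 was at -0.01 (SE 0.11), MRPS12 at -0.13 (SE 0.10), MRPL51 at -0.15 (SE 0.12), MRPL19 at -0.25 (SE 0.11) and MRPS23 at 0.10 (SE 0.11).

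Nearest to the threshold among uncalled small subunit genes was MRPS15, with 38.3 and 38.0 CPM in shRALY, against 45.5 and 48.0 CPM in shControl (log2 -0.29, SE 0.12; edgeR adjusted p = 0.0549). MRPS17 had low counts, with 4.79 and 5.93 CPM in shRALY, against 8.43 and 4.76 CPM in shControl (log2 -0.31, SE 0.26; edgeR adjusted p = 0.375). MRPL46 had 7.78 and 7.46 CPM in shRALY, against 8.60 and 9.98 CPM in shControl (log2 -0.28, SE 0.20; edgeR adjusted p = 0.273). MRPS17 shares 31.8% of its 50-base words with another gene. Of the other small subunit genes with the highest estimates, MRPS33 was at log2 0.21 (SE 0.14), MRPS21 at 0.19 (SE 0.13), MRPS10 at 0.15 (SE 0.13) and MRPS5 at 0.14 (SE 0.11), and none passed. Over the 62 uncalled members the log2 fold change ran from -0.31 to 0.44 with SE between 0.10 and 0.31; a p above the threshold does not show that their levels were equal. MRPS24, the counterpart of S3, was not tested, with 2 and 4 counts in shRALY and 5 and 6 counts in shControl. The readthrough gene URGCP-MRPS24, which overlaps part of its exons, had 0 counts in every library. Other genes on the same strand cover 23.2% of the exonic bases of MRPS24. The sources used here do not give how reads in such overlaps were counted.

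Some mitochondrial ribosomal protein genes start beside a gene transcribed the other way. How common this is among all protein-coding genes was not measured. For 25 of the 78, the nearest protein-coding gene on the opposite strand starts no more than 1000 bases upstream or 500 bases downstream of the member's own start. MRPL46 and MRPS11 are each other's neighbour, with 34 bases between their starts; neither passed (log2 -0.28, SE 0.20, and log2 -0.22, SE 0.12). In the other pairs the neighbour is another kind of gene, and 22 of these pairs could be tested. In them 9 neighbours passed (40.9%, near the 41.0% of all tested genes), 2 higher and 7 lower. Of the members in these pairs, 6 passed (27.3%). In no pair did both pass with edgeR. At an unadjusted p under 0.05 there was 1 such pair (MRPL18 with TCP1, both lower), and with DESeq2 there were 0. With so few calls, these counts do not show whether members and neighbours respond apart.

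MRPL57, a mitochondria-specific large subunit protein, had 35.3 and 34.2 CPM in shRALY, against 42.5 and 40.0 CPM in shControl (log2 -0.25, SE 0.12; edgeR adjusted p = 0.111). Its neighbour SKA3, of the kinetochore, starts 43 bases away and had 1.85 and 2.57 CPM in shRALY, against 30.8 and 24.8 CPM in shControl, 12.6-fold lower (log2 -3.66, SE 0.21; edgeR adjusted p = 2.60e-12). MRPL27, the counterpart of bacterial L27, had 49.9 and 47.4 CPM in shRALY, against 47.9 and 41.9 CPM in shControl (log2 0.11, SE 0.12; edgeR adjusted p = 0.483). EME1, a DNA repair nuclease subunit that starts 6 bases away, had 3.16 and 2.87 CPM in shRALY, against 18.8 and 14.9 CPM in shControl, 5.57-fold lower (edgeR adjusted p = 2.79e-09). Both neighbours were far lower in both shRALY libraries, whereas the groups of MRPL27 overlapped and those of MRPL57 lay close together.

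MRPL51 and the condensin gene NCAPD2 overlap at their starts, and 31.3% of the exonic bases of MRPL51 are covered by genes on the other strand, so reads cannot be divided with certainty. NCAPD2 was 5.47-fold lower (edgeR adjusted p = 8.42e-14), whereas MRPL51 had 63.1 and 59.4 CPM in shRALY, against 63.1 and 73.2 CPM in shControl (log2 -0.15, SE 0.12; edgeR adjusted p = 0.316). The reverse case was MRPS27, described above, whose neighbour PTCD2 had 31.6 and 32.3 CPM in shRALY, against 34.6 and 26.5 CPM in shControl (log2 0.06, SE 0.14; edgeR adjusted p = 0.76). Likewise MRPS34 fell while its neighbour EME2 did not pass, with 16.6 and 19.3 CPM in shRALY, against 14.5 and 17.1 CPM in shControl (log2 0.18, SE 0.16; edgeR adjusted p = 0.399). The difference in response between members and neighbours was not tested. To show how close the starts can be, the stretch upstream of MRPL57 towards SKA3 that no exon covers is only 42 bases long (chr13:21176603-21176644, plus strand, RefSeq, GRCh38.p14).
MRPL57: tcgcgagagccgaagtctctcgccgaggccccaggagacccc

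**Figure D4:**
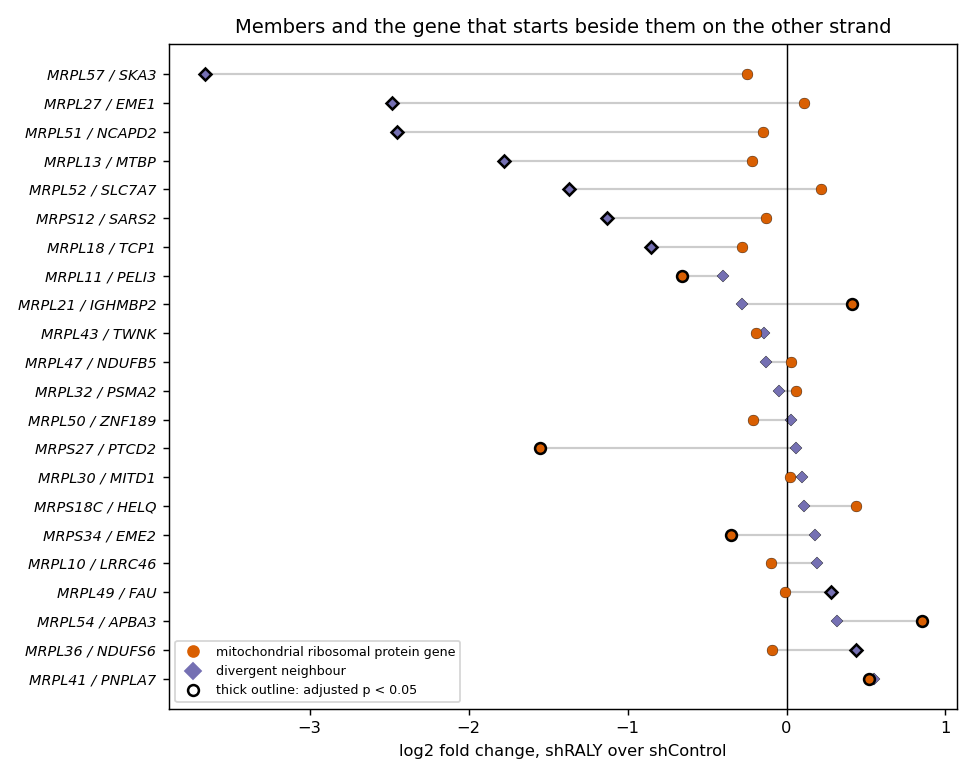
Log2 fold change (x axis, shRALY over shControl) of mitochondrial ribosomal protein genes (circles) and of the protein-coding gene that starts beside each on the opposite strand (diamonds), for the 22 pairs tested, with a thick outline where the gene passed the edgeR test. In no pair are both outlined, and the longest line joins MRPL57 (-0.25) to SKA3 (-3.66).

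RefSeq promoter windows of 300 bases, 250 before to 50 after the start, were found for 69 members. The members not matched were MRPL2, MRPL10, MRPL13, MRPL15, MRPL21, MRPL23, MRPL35, MRPS28 and MRPS36. The ETS motif CCGGAAG, on either strand, occurred in 42.0% of member windows, against 10.7% of all 27305 windows and 14.2% of those of protein-coding genes. The YY1-type motif AANATGGCG occurred in 26.1% of them, against 3.37% and 4.81%; in 15 of those 18 members every copy reached to or past the start. The GC-box GGGCGGG occurred in 49.3%, against 32.9% and 44.4%, and the NRF1-type motif in 13.0%, against 8.78% and 12%. CCAAT was found in 29%, against 35.7% and 36.4%, the E-box CACGTG in 8.70%, against 7.43% and 8.88%, and the E2F-type motif TTTNGCGC in 4.35%, against 1.83% and 2.44%. Some of these motifs can overlap each other, as the E2F-type motif and the NRF1-type motif share GCGC.

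By response, the ETS motif was in 2 of 5 windows of genes that rose, 4 of 8 of genes that fell and 23 of 55 of uncalled genes. The YY1-type motif was in 0 of 5, 1 of 8 and 16 of 55, and the NRF1-type motif in 0 of 5, 0 of 8 and 9 of 55. These are counts of letters, not of bound sites, and no test was made.

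Beyond the MRP symbols, 5 more genes encode proteins of the same ribosome. GADD45GIP1 of the large subunit averaged 41.1 ± 1.13 CPM in shRALY and 55.7 ± 0.601 CPM in shControl (SD, n = 2 libraries each; log2 -0.44, SE 0.12; edgeR adjusted p = 0.00429), and its counts are uncertain because of exonic overlap. DAP3, a GTP-binding protein of the small subunit, averaged 111 ± 1.51 CPM in shRALY and 83.8 ± 0.181 CPM in shControl (log2 0.40, SE 0.11; edgeR adjusted p = 0.00467). PTCD3 and CHCHD1 did not pass (edgeR adjusted p = 0.219 and 0.778), nor did AURKAIP1. So 1 of the 5 was higher and 1 lower (40.0% called, near the 41.0% of all tested genes).

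The other lists hold factors that act on this ribosome. Of 27 assembly factors, 1 was higher and 10 lower, 40.7% called, near the share of all tested genes, with a median log2 fold change of -0.18. The ribosome assembly factor RCC1L was at log2 -0.64 (edgeR adjusted p = 6.77e-05), ERAL1, a GTPase that binds the small subunit RNA, at log2 -0.53 (edgeR adjusted p = 5.06e-04) and MTERF3 at log2 -0.66 (edgeR adjusted p = 0.0016), while MPV17L2 was higher at log2 0.80 (edgeR adjusted p = 2.25e-04). Of 19 translation factors and activators, 0 were higher and 4 lower by edgeR, with a median of -0.10; at an unadjusted p under 0.05 there was 1 higher and DESeq2 gave 0. The 4 lower genes included TACO1, a translational activator (log2 -0.95, edgeR adjusted p = 1.33e-06), and MTFMT, which formylates the initiator tRNA (log2 -0.73, edgeR adjusted p = 5.00e-04). The others were the recycling factor gene MRRF (log2 -0.40, edgeR adjusted p = 0.00804) and GUF1 (log2 -0.41, edgeR adjusted p = 0.0338).

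Of 22 genes for charging mitochondrial tRNAs, 1 was higher and 7 lower (36.4% called, near the 41.0% of all tested genes), with a median of -0.21. The gene that rose was GARS (log2 0.87, edgeR adjusted p = 4.84e-07), which serves both cytosol and mitochondria. Of 20 genes for expression and upkeep of mitochondrial DNA, 1 was higher and 7 lower (40% called, again near the share of all tested genes), with a median of -0.32. TFAM, which packages mitochondrial DNA and starts its transcription, averaged 37.0 ± 0.735 CPM in shRALY and 84.9 ± 15.2 CPM in shControl (SD, n = 2 libraries each; log2 -1.20, SE 0.13; edgeR adjusted p = 8.47e-08). PNPT1, an RNA-degrading enzyme also known as interferon-inducible, was the riser, at 177 ± 3.84 CPM in shRALY and 73.8 ± 12.5 CPM in shControl (log2 1.26, SE 0.12; edgeR adjusted p = 1.19e-08).

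Of the 13 mRNAs encoded by mitochondrial DNA, which this ribosome translates, 6 were higher and 0 lower by edgeR, with a median log2 fold change of 0.25; DESeq2 also gave 6 and 0, and at an unadjusted p under 0.05 there was 1 lower. Of all tested genes 20.6% were higher and 20.4% lower. MT-CO1, MT-CO2 and MT-CO3, which are 3 of the 6, share 49.5%, 29% and 30.6% of their 50-base words with other genes, and their counts are uncertain. MT-ND3 was at log2 0.78 (edgeR adjusted p = 5.58e-06) and MT-ND6 at log2 0.48 (edgeR adjusted p = 6.41e-04). Of 36 tested nuclear genes for complex I, 12 were higher and 0 lower (33.3% called), with a median of 0.24; DESeq2 gave 12 and 0, and 1 was lower at an unadjusted p under 0.05. Among the 79 cytosolic ribosomal protein genes, 11 were higher and 15 lower (32.9% called), with a median of -0.04. Whether these lists differ from the mitochondrial ribosomal protein genes was not tested.

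**Figure D5:**
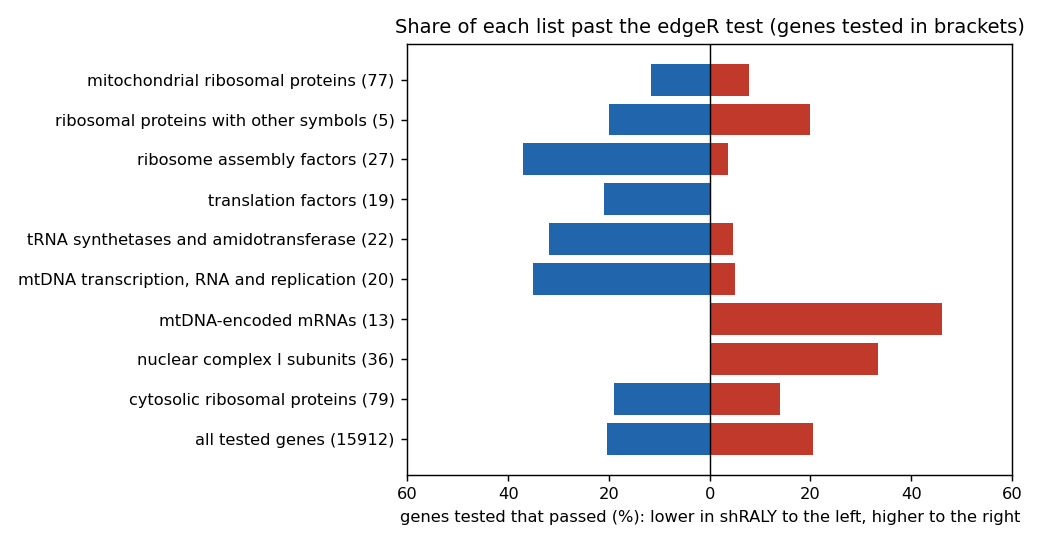
Share of tested genes (x axis, percent) that passed the edgeR test in each list, with genes lower in shRALY to the left of 0 and genes higher in shRALY to the right; the number of genes tested is in brackets. The mitochondrial ribosomal protein genes have 9 of 77 on the left and 6 of 77 on the right, and all tested genes 20.4% and 20.6%.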

How the data were processed

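Each deposited file lists whole-number raw counts of 1 library by Ensembl gene ID. The submitters' processing notes name featureCounts 1.5.0-p3, HISAT2 2.0.5 and DESeq2 1.20.0, and the build hg38; strand, multi-mapping and annotation settings were not given in the sources used here. Libraries were poly-T selected, per the labels' protocols. In 1 file, 1 line separated by a space was read like the rest. Symbols and positions are from GENCODE 29 (GRCh38).

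Counts were tested with edgeR 4.0.16 (R 4.3.3): filterByExpr (minimum count 10, minimum total 15) kept 15912 genes, libraries were scaled by TMM, and the robust quasi-likelihood F-test compared shRALY with shControl, with Benjamini-Hochberg adjustment over all tested genes. Standard errors (SE) were obtained by dividing the absolute log2 fold change by the root of F. CPM use TMM-scaled library sizes. A gene is called uncertain when over 20% of the 50-base words of its longest transcript or of its exonic bases are shared with another gene. DESeq2 1.42.0 and the other alternatives are given in the closing section, and the edgeR and DESeq2 fits were tested on simulated data. Named genes were the 6 highest and 6 lowest log2 fold changes of each subunit with at least 5 CPM in a group, the 3 of each subunit highest per length, 9 members named in any case, and up to 4 genes of each other list with the smallest adjusted p; AURKAIP1, MRPL13, MRPL18, MRPL27, MRPL28, MRPL57, MRPS7, MRPS11, MRPS24, MT-CO3 and the divergent neighbours were added after their values were seen. The members and lists were chosen with earlier results of these data known. Results for some genes of the lists are not reported here.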

Additional observations from a re-analysis of the deposited data

How the results depend on the processing

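With library size alone, the median log2 fold change was -0.14 over all members and -0.14 over the large subunit. The median of all tested genes moved to -0.07. In that fit 6 members were higher and 13 lower (24.7% called, against 41.5% of all tested genes). A filter of 10 CPM in 2 libraries gave medians of -0.04 for all members and for the large subunit, with 6 members left out. A test against a 1.2-fold change left 3 members higher and 5 lower (10.4% called, against 28.3% of all tested genes). Leaving out each library in turn, with the lone library assumed to vary like the other group's pair, 3 to 11 members were higher and 5 to 17 lower. The medians then ranged from -0.11 to -0.02 over all members, -0.08 to -0.03 over the large subunit and -0.15 to 0.08 over the small subunit. The highest counts came without shControl replicate 1 (11 higher, 16 lower) and without shControl replicate 2 (7 higher, 17 lower), and the lowest without shRALY replicate 1 (3 and 6) or shRALY replicate 2 (3 and 5). With subunits assigned by the letter in the symbol the small subunit median was -0.00. The sign of the small subunit median is thus not settled. The 2 shControl libraries differed more from each other than the 2 shRALY libraries did. The chi-square per gene, of counts against those expected from depth alone, was 11.6 for shControl and 4.85 for shRALY. The causes of these shifts were not tested. With the replicate number as a block, 7 members were higher and 13 lower (26.0% called, against 45.6% of all tested genes). All 15 main calls held, and MRPL18, MRPL19, MRPS7 and MRPS15 (lower) and MRPS18B (higher) were added. The labels do not say whether replicate numbers pair libraries. The deviations of same-numbered libraries correlated at 0.0721 across genes, which does not settle whether they are paired. No called direction reversed in any alternative. MRPS24 had too few counts for a test at this depth.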

Other observations

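Genes for nuclear regulators known to act on mitochondrial gene promoters were measured beside the family. Of 11 such genes, 10 were tested, 1 was higher and 5 were lower in shRALY, against 20.6% of all tested genes higher and 20.4% lower, with a median log2 fold change of -0.28. NRF1, an activator of nuclear genes for mitochondria, averaged 11.4 ± 0.449 CPM in shRALY and 19.8 ± 2.25 CPM in shControl (SD, n = 2 libraries each; log2 -0.80, SE 0.17; edgeR adjusted p = 4.37e-04). HCFC1, a cofactor of several promoter-binding proteins, averaged 96.1 ± 15.1 CPM in shRALY and 225 ± 53.6 CPM in shControl (log2 -1.23, SE 0.14; edgeR adjusted p = 5.15e-07). PPRC1, a coactivator related to PGC-1alpha, was at log2 -0.40 (SE 0.11; edgeR adjusted p = 0.00715). MYC was the gene that rose, at 183 ± 0.339 CPM in shRALY and 125 ± 8.06 CPM in shControl (log2 0.55, SE 0.11; edgeR adjusted p = 2.24e-04). GABPA, a factor that binds the ETS motif, was at log2 -0.51 (edgeR adjusted p = 0.00907) and YY1 at log2 -0.29 (edgeR adjusted p = 0.0337). GABPB1 (log2 0.19, edgeR adjusted p = 0.309) and ESRRA (log2 0.31, edgeR adjusted p = 0.0501) had positive estimates and did not pass. GABPA, YY1, GABPB1 and ESRRA were named after their values were seen. A link between these levels and those of the mitochondrial ribosomal protein genes was not tested.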
